A study of Mus musculus with 6 samples.

Results

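The genes described here are 8 members of the S100 family that stromal cells express, chosen by name as S100a1, S100a4, S100a6, S100a10, S100a11, S100a13, S100a16 and S100b. They are 8 of the 49671 genes in each table, all 8 passed the filter on low counts, and the granulocyte pair S100a8 and S100a9 was kept apart. RNA was sequenced from cells of mouse pancreatic tumours grown for 4 weeks after FC1199 pancreatic cancer cells were placed in the pancreas of C57BL/6J hosts aged 8 weeks. Every host carried the Rosa-mTmG reporter, which turns from the red protein Tomato to GFP where Cre recombinase has acted, together with Fabp4-Cre, in which the Fabp4 promoter drives Cre. Podoplanin-positive cells were sorted by colour into a GFP fraction, labelled as cancer-associated fibroblasts (CAFs) from stellate cells, and a Tomato fraction, labelled as CAFs of another origin, with 3 libraries of each from mice aged 12 weeks. The fractions therefore share the host genotype, the tumour model and the gate, and differ in whether Fabp4-Cre was ever active in the cell or its ancestors, which is what limits the GFP fraction as a model of stellate descent.

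S100 proteins are small calcium sensors with a pair of EF-hand calcium-binding loops that usually act as dimers. On binding calcium most of them expose a surface that grips a partner, such as an annexin or a myosin heavy chain, and several also leave the cell and bind surface receptors such as RAGE, the product of Ager. In connective tissue S100A4, also called fibroblast-specific protein 1, is widely used as a fibroblast marker, although macrophages make it too. Of the 8 genes, 7 lie on chromosome 3 in GRCm38, in a cluster that holds many of the family, while S100b lies on chromosome 10 (76253853 to 76261159, plus strand).

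All of these genes make short transcripts, which matters for the comparison because the fractions differed by transcript length across all genes. The longest annotated transcript was 498 bases for S100a4, 511 for S100a11, 677 for S100a1, 685 for S100a10, 715 for S100a13, 783 for S100a6, 1127 for S100a16 and 1484 for S100b. S100a1 (90511034 to 90514392, minus strand) and S100a13 (90514435 to 90524581, plus strand) are neighbours that point away from each other. Between their RefSeq starts, at 90514330 and 90514435, lie 104 bases. The GENCODE start of S100a1, 90514392, falls among them. The stretch between the RefSeq starts is shown because both genes begin there and their reads are set against each other among the ratios. It runs over chr3:90514301-90514464 on the plus strand of GRCm38.p6 with 30 bases of the first exon on each side, the S100a1 start lying to the left and that of S100a13 to the right.
S100a1-S100a13: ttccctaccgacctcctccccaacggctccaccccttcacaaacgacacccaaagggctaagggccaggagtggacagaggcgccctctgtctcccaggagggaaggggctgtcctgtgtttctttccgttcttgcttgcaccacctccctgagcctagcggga

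The promoters of S100a4 and S100a11 are shown because these genes have the shortest transcripts of the 8 and lay on opposite sides of other genes of their length. Each covers 100 bases before the RefSeq start and 30 after it (chr3:90603670-90603799 and chr3:93520396-93520525, plus strand, GRCm38.p6). Capitals mark matches on either strand to a TATA box (TATAAA), an AP-1 site (TGANTCA) or a GC box (GGGCGG).
S100a4: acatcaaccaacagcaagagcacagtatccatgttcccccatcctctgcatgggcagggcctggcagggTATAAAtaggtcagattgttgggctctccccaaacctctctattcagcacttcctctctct
S100a11: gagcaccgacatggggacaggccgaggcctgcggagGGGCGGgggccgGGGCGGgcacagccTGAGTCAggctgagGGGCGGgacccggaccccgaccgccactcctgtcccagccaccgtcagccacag

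The S100a4 window held a TATA box that began 31 bases before the start, and S100a11 held an AP-1 match at -38, another at -136 before the bases shown, and GC boxes at -64, -52 and -24. Of 32851 RefSeq promoter windows of equal length (250 bases before to 50 after a start), 13.6% held the TATA letters, 7.81% the AP-1 letters and 35.7% the GC box. None of these letters was found in the windows of S100a1, S100a6, S100a13 or S100b, while the second of the S100a16 windows held an AP-1 match and a GC box. Windows were matched for 7 of the 8 genes. A match is a description of the letters and not evidence of binding.

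The libraries held 35580848 to 40213293 counts in GFP and 33378377 to 42154933 in Tomato. Fibroblast markers were abundant, with a summed level of 129836 to 144520 CPM (counts scaled to a common library total by the TMM method) in GFP and 63566 to 96598 CPM in Tomato, and 6 of 11 were higher in GFP. All 13 macrophage markers were lower in GFP (133 to 208 against 938 to 2288 CPM in sum), as were 5 of 6 neutrophil, 11 of 12 mesothelial and 6 of 10 epithelial markers tested, while 5 of 6 lymphatic and 7 of 12 blood and pan-endothelial markers were higher. Of all genes tested, 15.7% were lower and 13.1% higher. Genes with transcripts under 1000 bases held 2.43% to 2.86% of the counts in GFP and 3.62% to 4.7% in Tomato. Nothing in the labels says that the libraries came from separate animals, so p-values measure the spread between these libraries, which may be technical.

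Of the 8 genes, 3 were called lower in GFP and none higher. Together they held 0.121% to 0.145% of all counts in GFP libraries and 0.169% to 0.18% in Tomato libraries. S100a1, S100a4 and S100a10 passed as lower (adjusted p under 0.05, edgeR quasi-likelihood test), which is 3 of 8, where 15.7% of all 15608 genes tested passed in that direction. Without GFP replicates 1 or 3, or without Tomato replicate 2, the count was 1, and it was 2 without Tomato replicate 3. The GFP libraries lay below all Tomato libraries for 5 of 8 genes, against 25.2% of all genes. The log2 fold change (GFP over Tomato) was below 0 for 6 of 8 genes, against 49.6% of all genes. Its median was -0.27 for the 8 genes and 0.00 for all genes tested. No gene of the 8 was higher by edgeR, DESeq2 or limma-voom, and also 0 at an unadjusted p under 0.05. Of all genes 13.1% were higher by edgeR. Shares over all genes are not those of short genes. Among protein-coding genes of at least 10 CPM, 82.8% of those with transcripts of up to 600 bases were called lower. It was 61.6% for over 600 to 1000 bases and 35.5% for over 1000 to 1500. In these classes 93.1%, 97% and 85.4% had a log2 fold change below 0, and 0%, 0.38% and 3.21% were called higher. In bulk libraries, fewer cells that express a gene and less RNA of it per cell cannot be told apart.

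**Figure D1:**
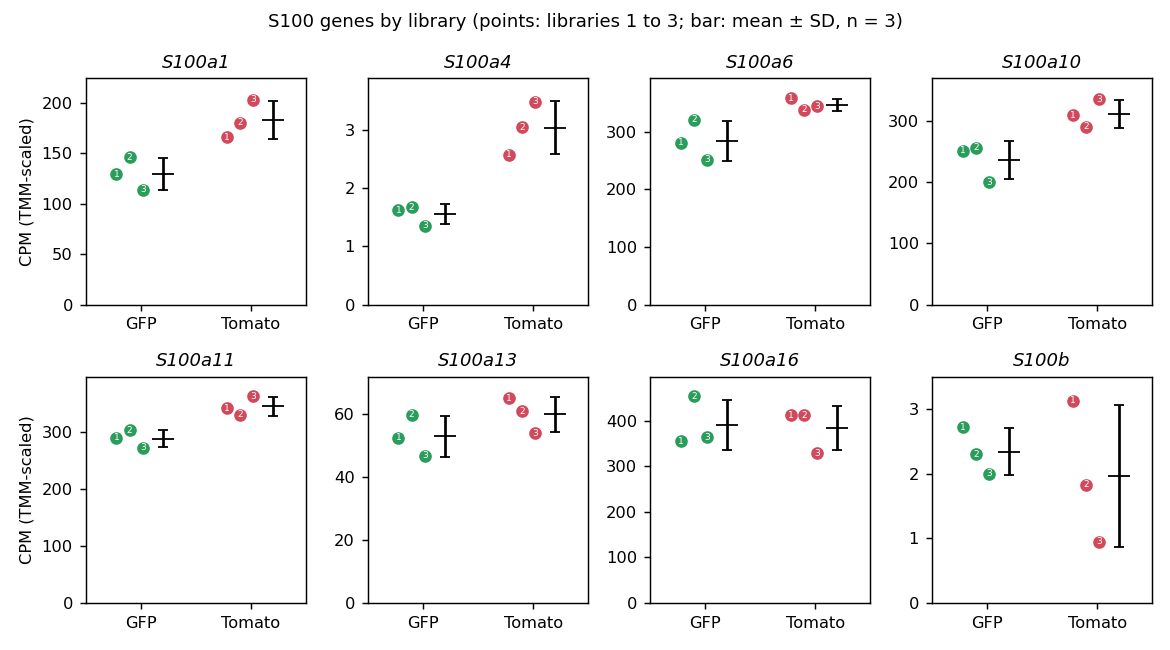
TMM-scaled CPM of the 8 S100 genes in each library (points, numbered by replicate; left GFP, right Tomato), with mean ± SD over 3 libraries; each axis starts at 0. GFP lies below Tomato without overlap for S100a1, S100a4, S100a6, S100a10 and S100a11, and the fractions overlap for S100a13, S100a16 and S100b.

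S100a1, best known from heart and skeletal muscle, where it acts on calcium handling by the sarcoplasmic reticulum, was abundant in these cells. It had 129, 146 and 114 CPM in GFP libraries and 166, 180 and 203 CPM in Tomato libraries. Every GFP library lay below every Tomato library. The log2 fold change was -0.49 ± 0.12 (SE; adjusted p = 0.0173, edgeR), so that the GFP level was 0.71 of the Tomato level. The call was lost without GFP replicate 1 (adjusted p = 0.0619), GFP replicate 3 (0.0619) or Tomato replicate 2 (0.0563).

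S100a10, or p11, is unusual in the family because its loops no longer bind calcium. It pairs with annexin A2 and holds plasminogen at the cell surface. S100a10 (93555080 to 93564643) had 252, 257 and 200 CPM in GFP and 310, 291 and 336 CPM in Tomato. GFP replicate 3 was the lowest library, and the fractions did not overlap. Its log2 fold change was -0.40 ± 0.12 (adjusted p = 0.0361, edgeR). Tomato replicate 1 was the sole library that could be left out with the call kept (adjusted p = 0.0416). The adjusted p was 0.0711, 0.0564 and 0.111 without GFP replicates 1, 2 and 3, and it was 0.072 and 0.0635 without Tomato replicates 2 and 3.

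S100a6, or calcyclin, and S100a11, or calgizzarin, an annexin A1 partner, are expressed by many dividing and mesenchymal cells. S100a6 (90612882 to 90624181) had 281, 321 and 251 CPM in GFP and 358, 338 and 344 CPM in Tomato. S100a11 (93520488 to 93526287) had 289, 302 and 272 CPM in GFP and 341, 329 and 362 CPM in Tomato. The fractions did not overlap for either gene, but neither passed, with log2 fold changes of -0.28 ± 0.11 (adjusted p = 0.0817, edgeR) and -0.26 ± 0.09 (adjusted p = 0.0644, edgeR). With the replicate number as a block both passed as lower, S100a6 at -0.29 (adjusted p = 0.0421) and S100a11 at -0.26 (adjusted p = 0.0485), and 5 of the 8 genes were then called, where 20.9% of all genes were lower. S100a6 also passed without GFP replicate 2 (-0.38, adjusted p = 0.0493), and S100a11 by DESeq2 (-0.26, adjusted p = 0.0319).

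S100a13, whose protein carries FGF1 out of the cell by a route that bypasses the usual secretory pathway, had 52.3, 59.6 and 46.7 CPM in GFP and 64.9, 60.8 and 53.8 CPM in Tomato. S100a16 (90537254 to 90543151), a widely expressed and less studied member, had 355, 454 and 364 CPM in GFP and 413, 413 and 329 CPM in Tomato. For both genes the fractions overlapped, and for S100a16 GFP replicate 2 was the highest and Tomato replicate 3 the lowest library. The log2 fold changes were -0.18 ± 0.12 for S100a13 (adjusted p = 0.267, edgeR) and 0.02 ± 0.14 for S100a16 (adjusted p = 0.914, edgeR).

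S100b, a marker of glia that adipocytes also express, was low, with 101, 77 and 71 reads in GFP and 134, 71 and 35 reads in Tomato. These are 2.72, 2.3 and 2 CPM in GFP and 3.13, 1.83 and 0.95 CPM in Tomato. Tomato held both the highest and the lowest library, and the log2 fold change of 0.24 ± 0.38 (adjusted p = 0.654, edgeR) was smaller than its error. It was -0.09 without Tomato replicate 3 and 0.74 without Tomato replicate 1. Schwann cell markers summed to 28.8 to 44.2 CPM in GFP and 37.1 to 45.9 CPM in Tomato. Of 6 tested, 3 were higher and 2 lower, where 13.1% and 15.7% of all genes were. Most of the Schwann sum was Gap43 (21.8 CPM in GFP against 8.47 CPM in Tomato) and Mbp (9.98 CPM in GFP against 29 CPM in Tomato). Of the 11 listed, Foxd3 and Pmp2 had no read in any library, and Sox10, the lineage factor, averaged 0 CPM in GFP and 0.00778 CPM in Tomato. Among 9 adipocyte markers, which summed to 28.2 to 30.4 CPM in GFP and 28.6 to 31.4 CPM in Tomato, mostly Fabp4 (17.1 CPM in GFP and 18.2 CPM in Tomato) and Pparg (7.78 CPM in GFP and 6.38 CPM in Tomato), Lep had no read, and Adipoq averaged 0.0858 ± 0.0571 CPM in GFP and 0.0453 ± 0.0784 in Tomato (SD, n = 3). The part of these cell types in the S100b level was not tested.

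S100a4 showed the largest difference of the 8 and rests on few reads. It had 60, 56 and 48 reads in GFP and 110, 118 and 128 reads in Tomato, or 1.62, 1.67 and 1.35 CPM in GFP and 2.57, 3.04 and 3.48 CPM in Tomato. The fractions did not overlap. The log2 fold change was -0.97 ± 0.21 (adjusted p = 0.0121, edgeR), a GFP level at 0.512 of the Tomato level, and it held in each of the 6 fits that left out a library (adjusted p from 0.00825 to 0.0462). It did not pass in the first strand column alone (-0.85, adjusted p = 0.0749), where GFP had 11, 16 and 19 reads and Tomato 28, 29 and 35.

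The S100a4 level cannot be read as the level of the gene. In GENCODE M21, 302 of its 584 exon bases (51.7%) are also exon bases of Gm42674, an overlapping gene on the same strand that joins exons of the S100a3 region to those of S100a4. Gm42674 has a row in the tables and was listed at 0 in all 6 libraries. A counter that assigns a read only where it meets a single gene leaves out reads on shared bases, and the counter used is not given in the sources used here. Exon bases that belong to S100a4 alone are 36 in the first exon (90603771 to 90603806), 86 at the start of the second (90604911 to 90604996) and 160 at the 3' end (90605886 to 90606045). Of its assigned reads 18.3% to 39.6% were in the first strand column, whereas 90% of the values of the 4757 genes with at least 1000 counts per library lay between 48.2% and 52.2%. The same bases were open to counting in each library, but the comparison of fractions covers the reads that were assigned and no others. Whether reads fell along the transcript alike in the 2 fractions was not tested.

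**Figure D2:**
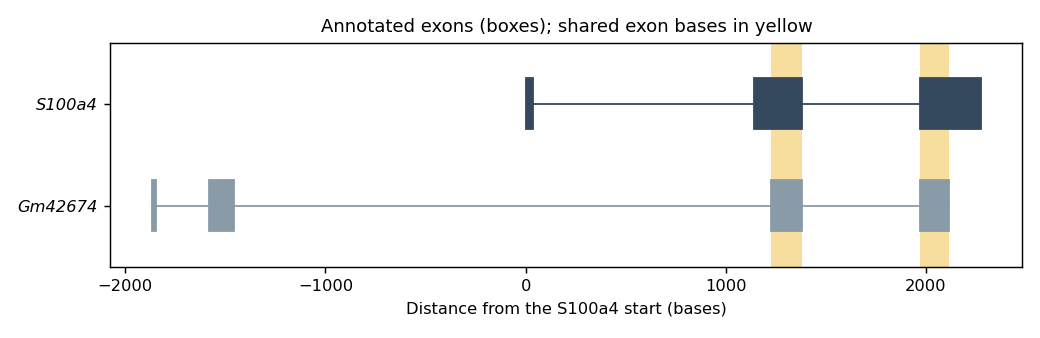
Annotated exons of S100a4 and Gm42674 (boxes), by distance in bases from the S100a4 start, with the shared exon bases in yellow. The 156 and 146 shared bases lie in the later exon blocks of S100a4, and the 36, 86 and 160 bases outside them belong to S100a4 alone.

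S100a11 also had an uneven strand split, with 36.9% to 39.5% of its reads in the first strand column. No annotated exon overlaps it, and its processed pseudogene S100a11-ps on chromosome 12 was assigned 0 to 2 reads. Reads that fit the gene and the pseudogene alike may have been assigned to neither. What gives rise to the split was not tested. The other abundant genes of the 8 were between 49.1% and 51.9%. Summing the 2 strand columns added at most 6 reads to S100a1 and 5 to S100a13 in any library, so their adjoining starts shared few reads.

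The differences of the 8 genes have to be read against a length trend in the comparison. Among protein-coding genes of at least 10 CPM, the median log2 fold change was -0.60 for 29 genes with transcripts of up to 600 bases, -0.46 for 263 genes of over 600 to 1000 bases and -0.28 for 560 genes of over 1000 to 1500 bases. It was 0.34 for 1342 genes longer than 6000 bases. Of the 29 genes, 93.1% had a log2 fold change below 0 and 82.8% were called lower in GFP. For the 560 genes these shares were 85.4% and 35.5%. Of the 263 genes, 97% had a log2 fold change below 0 and 61.6% were called lower in GFP. S100a1 (-0.49) and S100a10 (-0.40) lay within the interquartile range of those genes (-0.60 to -0.32), and S100a6 (-0.28) and S100a13 (-0.18) lay above it. S100a11 (-0.26) lay above the interquartile range of the shortest genes (-0.75 to -0.45), and S100a4 (-0.97) below it. S100a4 and S100b are themselves under 10 CPM, so they are set against more abundant genes. S100a16 (0.02) and S100b (0.24) lay above that of genes of over 1000 to 1500 bases (-0.46 to -0.11). What gives rise to the length trend was not tested.

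**Figure D3:**
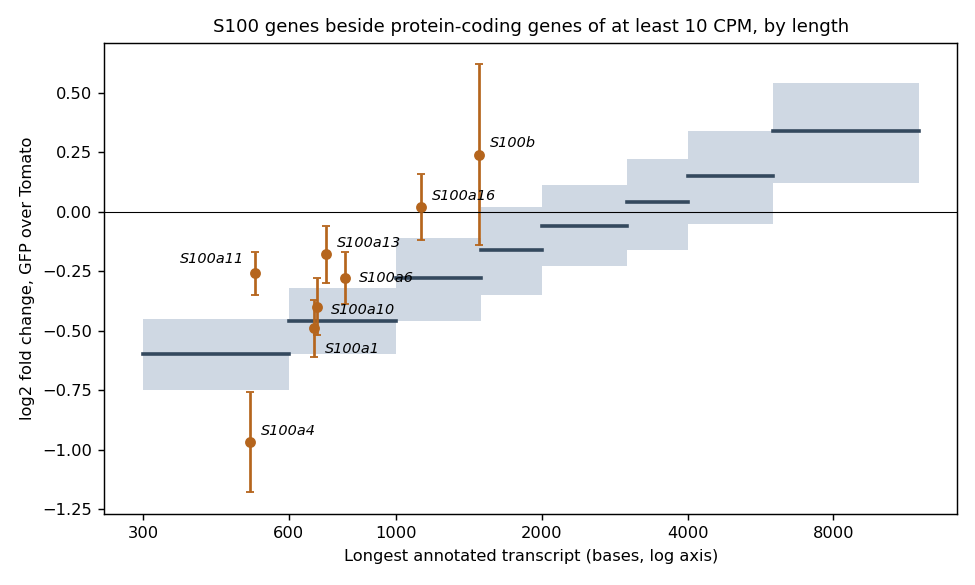
Log2 fold change of GFP over Tomato against the longest annotated transcript in bases (log axis). Points are the 8 S100 genes ± SE; lines and shading are the median and interquartile range of protein-coding genes of at least 10 CPM in 8 length classes, the first and last of which have no outer limit. The medians run from -0.60 in the shortest to 0.34 in the longest class, and S100a4 is the sole S100 gene below the shading of its class.

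With the trend of length and GC content removed by an offset per library, only S100a4 of the 8 genes was still called lower in GFP, at -0.65 (adjusted p = 0.0409, edgeR), where 12.9% of all genes were. With these offsets S100a1 was at -0.21 (adjusted p = 0.12) and S100a10 at -0.10 (adjusted p = 0.555). S100a6 was at 0.00, S100a11 at 0.05, S100a13 at 0.08, S100a16 at 0.23 and S100b at 0.49, and none of these passed. With the offsets and the replicate block together S100a4 was again the only one called, at -0.65 (adjusted p = 0.0374), and 18.2% of all genes were lower. The offsets did not remove the trend at its short end, where the median of the 29 shortest genes was still -0.32, and they also remove any real difference that follows length. For S100a4 the offset was set by the full longest transcript of 498 bases. Of its 584 exon bases, however, 302 are shared with Gm42674 and may not have been counted, so its correction is uncertain. With library size as the only scaling, which moved the median of all genes to -0.16, 6 of the 8 genes passed as lower, and S100a13 (-0.34, adjusted p = 0.0383) joined the 5 that passed with the block; 24.7% of all genes were then lower.

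**Figure D4:**
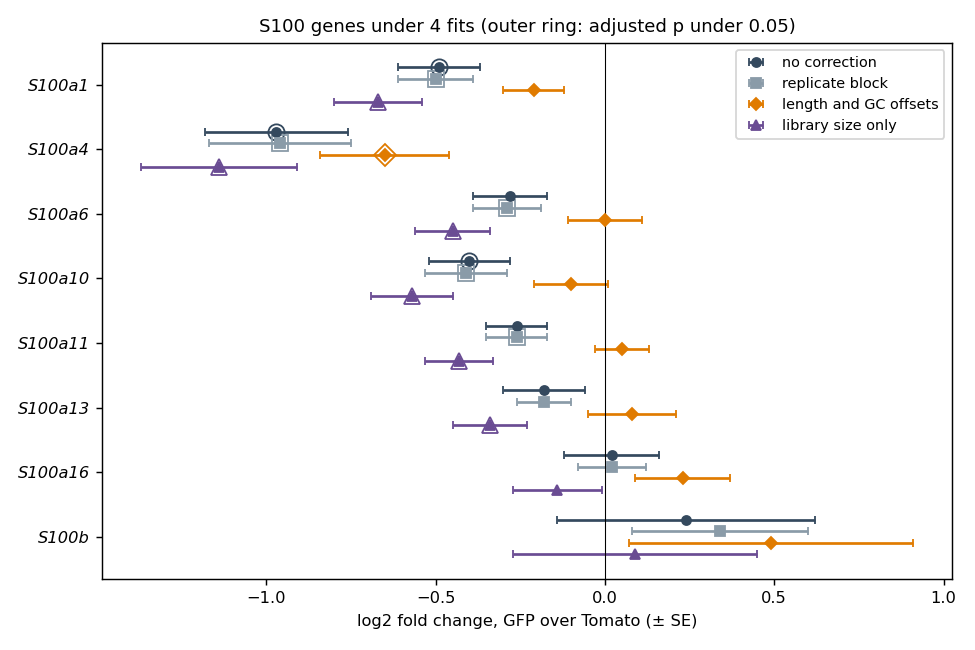
Log2 fold change of GFP over Tomato (± SE) for each S100 gene in 4 fits, with an outer ring where the adjusted p is under 0.05. S100a4 is ringed in all 4 fits, while the values of S100a1 and S100a10 move to -0.21 and -0.10 with length and GC offsets.

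Macrophages are known to express S100a4, S100a6, S100a10 and S100a11, and macrophage markers were lower in GFP. Their summed level was 133, 208 and 205 CPM in GFP replicates 1 to 3 and 938, 1536 and 2288 CPM in Tomato replicates 1 to 3. Tomato replicate 3 was the highest library for these markers, for S100a1, S100a4, S100a10 and S100a11, and for the share of counts in genes under 1000 bases (4.7%), whereas S100a6 was highest in Tomato replicate 1. Within GFP these 4 genes and S100a1 were lowest in replicate 3, while the macrophage sum was lowest in replicate 1. Mesothelial markers summed to 192 to 215 CPM in GFP and 1432 to 1847 CPM in Tomato. The part of these cells and of length in the S100 differences was not tested.

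Per kilobase of annotated exon, S100a11 had the highest level in both fractions, at 563 ± 28.8 CPM per kilobase in GFP and 674 ± 32.7 in Tomato (SD, n = 3). Its lowest GFP library, at 533, was above the highest library of any other member. In GFP the order went on with S100a16 (242 ± 33.8), S100a6 (208 ± 25.9), S100a10 (195 ± 25.8) and S100a1 (187 ± 23.4), whose ranges over libraries overlapped each with the next. In Tomato these 4 were at 263 ± 26.8 for S100a1, 258 ± 18.7 for S100a10, 253 ± 7.42 for S100a6 and 238 ± 30.2 for S100a16, also with overlapping ranges. S100a13 was lower, at 73.9 ± 9.07 in GFP and 83.7 ± 7.84 in Tomato, and S100b had 1.58 ± 0.243 in GFP and 1.33 ± 0.738 in Tomato. S100a4, at 2.65 ± 0.291 in GFP and 5.18 ± 0.779 in Tomato, is not ranked, since over 50% of its exon bases are shared. With the longest transcript as the length, S100a6 was at 363 in GFP and 442 in Tomato and S100a10 at 345 in GFP and 456 in Tomato, above S100a1 at 192 in GFP and 270 in Tomato.

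Ratios between 2 genes in the same library do not depend on how libraries are scaled. The 6 genes of at least 10 CPM give 15 pairs, of which 8 did not overlap between fractions. The share over pairs of all genes was not computed. Of single genes tested, 25.2% lay below Tomato and 23.4% above it without overlap. The pairs reuse the same 6 genes, so they are not independent. They also set genes of unlike length side by side, so the length trend can enter the ratios. With 3 libraries against 3, an exact two-sided permutation test cannot go below p = 0.1, which those 8 pairs reached, with p = 0.188 after adjustment over the 15 pairs. S100a1 reads per S100a13 read, for the genes with adjoining starts, were 2.47, 2.46 and 2.44 in GFP and 2.56, 2.95 and 3.77 in Tomato. The GFP libraries were nearly equal and all below Tomato, where the libraries spread. The log2 ratio differed by -0.31 (GFP minus Tomato, exact permutation p = 0.1), and by -0.16 without Tomato replicate 3.

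S100a1 per S100a16 differed by more, with 0.363, 0.322 and 0.313 in GFP and 0.402, 0.435 and 0.617 in Tomato (log2 difference -0.52, exact permutation p = 0.1; -0.33 without Tomato replicate 3). S100a6 per S100a11 was 0.973, 1.06 and 0.92 in GFP and 1.05, 1.03 and 0.949 in Tomato, a log2 difference of -0.03 (exact permutation p = 0.8). The fractions thus overlapped for that pair. Of the 15 pairs, S100a6 per S100a13 varied least within GFP, at 5.38, 5.39 and 5.37, against 5.51, 5.55 and 6.39 in Tomato. S100a13 had 1942, 1997 and 1656 reads in GFP. Counts of that size resolve its ratios, that with S100a1 included, less finely than these libraries happened to agree.

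**Figure D5:**
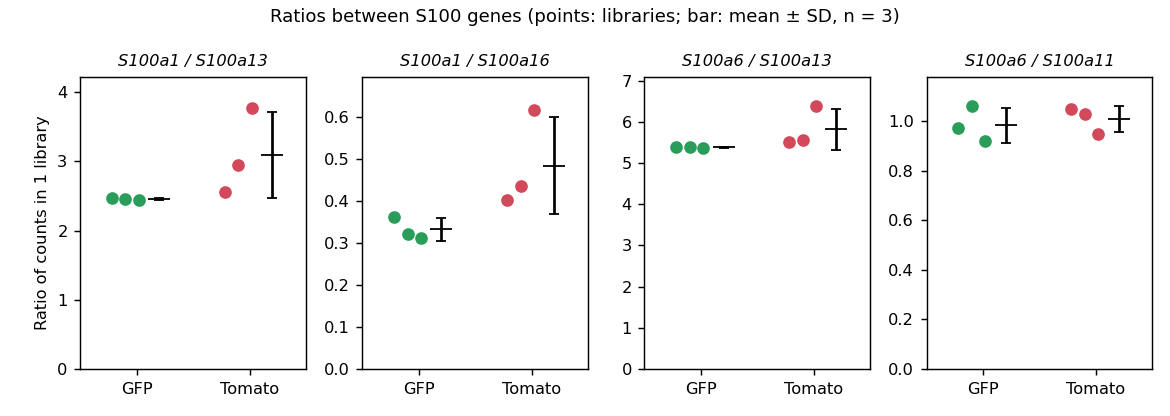
Ratio of read counts of 2 S100 genes within each library (points; left GFP, right Tomato) with mean ± SD over 3 libraries; axes start at 0. The GFP libraries lie below the Tomato libraries for S100a1 over S100a13 (2.44 to 2.47 against 2.56 to 3.77), and the fractions overlap for S100a6 over S100a11.

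The members were not each other's nearest genes in their pattern over the 6 libraries. Likeness was measured as the Euclidean distance of centred log2 CPM among genes of at least 10 CPM. The nearest were Rpp30 (0.0615) and Mcee (0.0667) for S100a1, Flrt3 (0.0691) and Gm49342 (0.087) for S100a6, and Rnf113a2 (0.13) and Lyplal1 (0.138) for S100a10. They were Snx6 (0.0701) and Rcbtb2 (0.0705) for S100a11, Ctso (0.0987) and Ift27 (0.105) for S100a13, and Sult5a1 (0.113) and Atp5s (0.122) for S100a16. Each member was compared with 8981 genes. The nearest other member had rank 138 for S100a1, 81 for S100a6, 50 for S100a10, 380 for S100a11, 102 for S100a13 and 387 for S100a16. The closest pair of members was S100a6 and S100a11 (0.189), and the farthest S100a1 and S100a16 (0.804). These distances describe 6 libraries that share a contrast and a length trend.

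Among the other S100 genes only the granulocyte pair passed, and it differed far more. S100a8 had 0.485, 0.358 and 0.817 CPM in GFP and 9.54, 6.05 and 8.91 CPM in Tomato, a log2 fold change of -3.87 ± 0.31 (adjusted p = 0.000151, edgeR). S100a9 had 0.565, 0.269 and 1.27 CPM in GFP and 7.65, 7.05 and 11 CPM in Tomato (-3.60 ± 0.45, adjusted p = 0.00158, edgeR). Their proteins form calprotectin of neutrophils, and the neutrophil list, which holds this pair, summed to 4.17 to 6.43 CPM in GFP and 26 to 37.9 CPM in Tomato. S100a3, next to S100a4, averaged 2.14 ± 0.266 CPM in GFP against 2.01 ± 0.392 CPM in Tomato (adjusted p = 0.786 for a log2 fold change of 0.09). S100a14, an epithelial member, averaged 0.667 ± 0.283 CPM in GFP against 0.958 ± 0.323 CPM in Tomato (adjusted p = 0.332 for a log2 fold change of -0.51). S100a2, S100a5, S100a7a, S100g and S100z were too low to test.

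Of 28 tested genes of binding partners and receptors, 3 were higher and 4 lower in GFP, where 13.1% and 15.7% of all genes were, so neither count exceeds the background. Their median log2 fold change was -0.09. With the replicate block 6 were higher, where 20.1% of all genes were. With GFP replicate 1 or 3 or Tomato replicate 2 left out the counts were 1 higher and 2 lower, and without GFP replicate 2 they were 4 higher and 2 lower. Fgf1, the growth factor that S100A13 helps to export, was at 41.9, 37.3 and 35.4 CPM in GFP and 233, 238 and 163 CPM in Tomato. All GFP libraries were far below Tomato, with a log2 fold change of -2.47 ± 0.16 (adjusted p = 4.69e-05, edgeR), while S100a13 itself did not pass. Alcam, an adhesion molecule reported as an S100B receptor, was lower too (-1.85 ± 0.21, adjusted p = 0.000673), with 3.9 ± 1.12 CPM in GFP and 14.1 ± 1.3 in Tomato.

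The myosin heavy chain genes that S100A4 binds as proteins were higher in GFP, opposite in sign to S100a4. Myh9 averaged 350 ± 74.1 CPM in GFP against 205 ± 44.9 CPM in Tomato, a log2 fold change of 0.77 ± 0.19 (adjusted p = 0.0215). Myh10 averaged 65.9 ± 10.2 CPM in GFP against 47.2 ± 2.29 CPM in Tomato, a log2 fold change of 0.48 ± 0.12 (adjusted p = 0.0194). Both transcripts exceed 6000 bases, and with length and GC offsets neither passed, at 0.41 (adjusted p = 0.0696) and 0.17 (adjusted p = 0.17), though Myh9 did with offsets and block together (0.41, adjusted p = 0.00359). Both calls were also lost without GFP replicate 1 (0.068 for Myh9 and 0.062 for Myh10), GFP replicate 3 (0.053 and 0.0538) or Tomato replicate 2 (0.0789 and 0.0742), and that of Myh9 without Tomato replicate 3 (0.06). Dysf, the membrane repair gene dysferlin, whose protein binds S100A10, was higher as well, with 13.2 ± 2.49 CPM in GFP against 5.36 ± 1.1 CPM in Tomato (adjusted p = 0.00217 for a log2 fold change of 1.30 ± 0.19).

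The calcyclin-binding gene Cacybp averaged 80.4 ± 6.52 CPM in GFP against 105 ± 13.7 CPM in Tomato, a log2 fold change of -0.38 ± 0.11 (adjusted p = 0.0374). Sugt1, a chaperone adaptor whose protein binds S100A6, averaged 34.9 ± 1.83 CPM in GFP against 45 ± 4.88 CPM in Tomato, a log2 fold change of -0.37 ± 0.10 (adjusted p = 0.0303). The Cacybp call was lost with length and GC offsets (-0.18, adjusted p = 0.183). Both calls were lost without each library but Tomato replicate 1, with adjusted p from 0.0582 to 0.129 for Cacybp and from 0.0516 to 0.0988 for Sugt1. Ager, the RAGE gene, stood below 1 CPM in both fractions, at 0.896 ± 0.239 in GFP and 0.865 ± 0.0919 in Tomato (0.05, adjusted p = 0.914). Tlr4, another receptor for S100 proteins, averaged 29.2 ± 1.17 CPM in GFP against 35.9 ± 3.41 CPM in Tomato, a log2 fold change of -0.30 that did not pass (adjusted p = 0.0526). Ahnak, a giant scaffold that S100A10 and annexin A2 hold at the membrane, averaged 562 ± 88.8 CPM in GFP against 415 ± 108 CPM in Tomato. Its log2 fold change of 0.44 ± 0.20 did not pass (adjusted p = 0.126), but did with the replicate block (0.46, adjusted p = 0.006) and without Tomato replicate 1 (0.64, adjusted p = 0.0174).

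Of 12 annexin genes, which encode calcium-dependent membrane binders, 2 were lower in GFP and none higher, with a median log2 fold change of -0.22 against 0.00 over all genes. Of all genes 15.7% were lower, so the count of 2 is near the background. By DESeq2 4 were lower, and over all genes DESeq2 called 2611 lower where edgeR called 2456. By DESeq2, limma-voom or at an unadjusted p under 0.05 still 0 were higher, where 13.1% of all genes were higher by edgeR. Anxa8 had 4.25, 4.95 and 8.09 CPM in GFP and 46.1, 57 and 52.3 CPM in Tomato (-3.17 ± 0.23, adjusted p = 0.000144, edgeR), a far larger difference than that of any S100 gene of the 8. Anxa4 was lower by less (-0.27 ± 0.08, adjusted p = 0.0352), a call lost with length and GC offsets (-0.14, adjusted p = 0.196) and without each library but Tomato replicate 3 (adjusted p from 0.0534 to 0.123). Transcripts of Anxa2, the partner of S100A10, were far more abundant, at 1386 ± 89 CPM in GFP against 1666 ± 89.9 CPM in Tomato. Its log2 fold change was -0.26 ± 0.11 (adjusted p = 0.107), and it passed as lower by DESeq2 (-0.27, adjusted p = 0.0347).

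Of 36 other EF-hand calcium binders tested, 5 were higher and 8 lower in GFP, with a median log2 fold change of -0.05. Over all genes 13.1% were higher and 15.7% lower, so the higher count is near the background. The isomerase genes Fkbp10 (0.38 ± 0.10, adjusted p = 0.0229) and Fkbp9 (0.44 ± 0.13, adjusted p = 0.0349) and the neuronal calcium sensor Ncs1 (0.32 ± 0.10, adjusted p = 0.0365) were higher. Tesc (-3.42 ± 0.57, adjusted p = 0.00543), Calb2, the calretinin gene used as a mesothelial marker (-3.76 ± 0.63, adjusted p = 0.00625), and Pef1 (-0.51 ± 0.10, adjusted p = 0.00885) were lower. Calb2 was at 0.603 ± 0.503 CPM in GFP and 8.22 ± 4.81 in Tomato. With library size as the only scaling none of the list was higher, and with length and GC offsets 8 were higher and 5 lower, where 9.22% and 12.9% of all genes were. Ncs1 was not among them with the offsets (0.16, adjusted p = 0.248), nor was it called with no filter (adjusted p = 0.0601). The count of higher genes was 0 without GFP replicate 3 or Tomato replicate 2, 2 without Tomato replicate 1, and 1 without any other single library. Fkbp10 lost its call without GFP replicates 2 or 3 or Tomato replicate 2 (adjusted p up to 0.095), Fkbp9 without each library but Tomato replicate 1 (up to 0.103), and Ncs1 without each but GFP replicate 2 (up to 0.135). The count of lower genes was 3 with GFP replicate 1 or 3 or Tomato replicate 2 left out, while Tesc, Calb2 and Pef1 were called in all 6 such fits.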

How the data were processed

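Total RNA (150 ng) from 3 GFP and 3 Tomato sorts went into TruSeq libraries, per the labels' protocols. Each deposited table gives raw counts of reads per gene, unstranded and by strand, per the file headers. Trim Galore 0.4.3, STAR 2.5.2b and GRCm38 are named in the submitters' processing notes, with no roles given. The unstranded counts were used: totals of the 2 strand columns had ratios of 1.002 to 1.006, so reads of genes that overlap on opposite strands cannot be told apart. GENCODE M21 supplied names, lengths, GC content and 1-based coordinates for 49412 of 49671 identifiers; the 259 others held 0.0076% of the counts. RefSeq (GRCm38.p6) supplied promoters.

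The test was edgeR 4.0.16 in R 4.3.3 (robust quasi-likelihood, two-sided, TMM scaling, filterByExpr, no block), with Benjamini-Hochberg adjustment over 15608 genes and a threshold of 0.05. Every adjusted p not credited to another tool is from edgeR. The SE of a fold change was derived from its F statistic, and errors of levels are SDs over 3 libraries. The code was tested on simulated data. Deviations from the group mean correlated between same-numbered GFP and Tomato libraries (0.403, 0.108 and 0.347, against -0.392 to 0.0281 for other numbers). Deviations cancel within a group of 3, so values for the same and for other numbers are not independent. All 3 values for the same number exceed 0.1, but the replicate number served as a block in alternative fits only. Such a pairing rests on the data and not on the labels. The reported tests, those of the ratios included, are unpaired. Blocked values stand beside some of the results that they change. No library was a duplicate (chi-square 28 to 118 per degree of freedom between libraries of a group).

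Alternatives were scaling by library size, by upper quartile or by relative log expression, 2 other filters, DESeq2 1.42.0, limma-voom (limma 3.58.1), non-robust estimation, the block, offsets per library from natural splines (4 degrees of freedom) of transcript length and GC content, alone and with the block, single and summed strand columns, protein-coding genes alone, a threshold of 0.01 and leaving out each library. Levels per kilobase were also taken with the longest transcript and on a TPM-like scale. Offsets from the union of exons were added after the data were seen. The members and lists were chosen with earlier results of these data known. Named are all members, S100 genes tested, the 3 genes up and 3 down with the smallest adjusted p in each list, Anxa2, Ahnak, Ager and Cacybp, and the 2 nearest genes of each member. Tlr4 and S100a11-ps, outside that rule, were chosen after their values were seen.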

Additional observations from a re-analysis of the deposited data

How the results depend on the processing

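No called result changed sign. Of the 8 genes, those not called turned sign with length and GC offsets (S100a11 to 0.05 and S100a13 to 0.08, also with the block or the union of exons), with library size alone (S100a16 to -0.14), and without single libraries (S100a16 to -0.10 without GFP replicate 2 and -0.09 without Tomato replicate 3, S100b to -0.09 without Tomato replicate 3). The number of the 8 S100 genes lower in GFP, 3 in the reported fit, was 6 with library size alone, 5 with the replicate block, 1 with length and GC offsets (also with the block, and with lengths from the union of exons), and 0 at a threshold of 0.01. It was 1 to 3 without single libraries. The S100a1 call was lost with length and GC offsets (-0.21), with the block as well (-0.22), with the union of exons (-0.22) and at a threshold of 0.01 (-0.49), and so was that of S100a10 (-0.10, -0.11, -0.12 and -0.40). S100a4 lost its call in the first strand column (-0.85) and at 0.01 (-0.97). S100a6 gained one with library size alone (-0.45) and the block (-0.29), S100a11 with library size (-0.43), DESeq2 (-0.26), the block (-0.26) and the first strand column (-0.31), and S100a13 with library size (-0.34). Without single libraries the log2 fold changes ran from -0.59 to -0.41 for S100a1, -0.46 to -0.29 for S100a10, -0.38 to -0.20 for S100a6, -0.29 to -0.22 for S100a11 and -1.08 to -0.86 for S100a4. Partner genes higher, 3 as reported, were 6 with the block, and lower, 4 as reported, were 10 with library size; without single libraries they were 1 to 4 and 2 to 5. Annexins lower, 2 as reported, were 5 with library size and 1 with length and GC offsets, with and without the block, and 1 to 3 without single libraries. EF-hand genes higher, 5 as reported, were 0 with library size, 8 with length and GC offsets and 10 with the block as well, and lower, 8 as reported, were 5 with the offsets; without single libraries they were 0 to 2 and 3 to 11. Over all genes 2049 were higher and 2456 lower, against 1128 and 3851 with library size, 3137 and 3256 with the block, 578 and 1083 at 0.01, and 833 to 2392 and 1380 to 2793 without single libraries. Depth limits S100a4 and S100b, which rest on 35 to 134 reads a library.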
